A study of Homo sapiens with 2 samples.

Results

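The telomerase and shelterin genes are 10 rows of the deposited gene count table, chosen by name among 58735 listed genes: TERT, DKC1, WRAP53, POT1, TERF1, TERF2, TERF2IP, TINF2, ACD and RTEL1. All 10 had at least 10 counts in at least 1 library, as did 17887 of the listed genes, which are called the genes tested. The choice set TERT against its cofactors and shelterin with the difference between the libraries already known, so all fold changes of these genes are a description and carry no test. The libraries are 1 of MAEL WT and 1 of MAEL KO PLC8024 cells (PLC/PRF/5), a human liver cancer cell line grown in culture. The label gives the MAEL WT cells as non-treated, whereas the study elsewhere calls its WT cells a nontarget control. The MAEL KO cells had received an sgRNA/Cas9 plasmid against MAEL, a gene of germ cells and many tumors that acts in transposon silencing, and the methods describe single clones grown from the sorted cells. A difference between clones or cultures and an effect of the knockout cannot be told apart with 1 library per condition, and no difference given here has a replicate check.

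The counts summed to 19904136 in MAEL WT and 20833332 in MAEL KO. MAEL itself had 1 and 0 counts, at or under the floor of 3 counts used here, which is too few to detect the transcript or to check the labels by it. Of 13 hepatocyte and liver cancer markers, 13 had counts in both libraries and 13 had a log2 fold change above 0, or 12 when scaled by total counts. Among all genes tested, 48% were above 0 with the main scaling. The summed counts of the 13 markers were 312705 in MAEL WT and 617695 in MAEL KO. Single markers stood much farther apart: ALB (albumin) had 59 and 8550 counts, AFP (alpha-fetoprotein) 26 and 1351, and APOA1, an apolipoprotein gene, 419 and 4400. The part of this hepatocyte difference in the values of the members was not tested. Of the defining markers of immune cells, PTPRC had 3 and 0 counts and CD3E had 0 in both. Log2 fold changes set MAEL KO over MAEL WT, so a positive value is a higher level in MAEL KO. They were taken after scaling by TMM factors, with 1 added to the normalized counts. The 95% interval beside each is an exact Clopper-Pearson interval, made from the part of the gene's counts that fell in MAEL KO. Such intervals hold counting error and nothing else, and without molecular identifiers PCR copies were counted as separate reads.

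Telomeres are the repeat tracts that cap chromosome ends, and they shorten with each round of DNA replication. Telomerase makes up the loss: TERT is its reverse transcriptase, TERC the RNA template, dyskerin (DKC1) binds and stabilizes that RNA, and TCAB1 (WRAP53) brings the enzyme to Cajal bodies. Shelterin coats the repeats and hides the ends from DNA repair. In it TERF1 and TERF2 bind double-stranded repeats, TERF2IP (RAP1) rides on TERF2, TINF2 (TIN2) joins the parts, POT1 binds the single-stranded overhang, and ACD (TPP1) pairs with POT1 and recruits telomerase. RTEL1 is a helicase that unwinds telomere loops during replication. Most adult hepatocytes keep TERT silent, and its reactivation is a frequent and early event in liver cancer.

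TERT was the member that differed most between the libraries and was higher in MAEL KO. WRAP53, ACD and DKC1 were also higher in MAEL KO, to a lesser degree, whereas TERF2IP, POT1 and TERF1 were lower. TERF2, TINF2 and RTEL1 had intervals that spanned 0. On the log2 scale, 0 of 10 members lay past 2 on either side, the size threshold of the study's methods. Of the genes tested 7.8% lay past it, 2.16% higher and 5.64% lower in MAEL KO, and of the protein-coding ones 6.88%. At a threshold of 1, 2 of 10 members passed, TERT and WRAP53, both higher in MAEL KO, against 26.7% of the genes tested in either direction, 22.9% of the protein-coding ones, 10.2% higher and 16.5% lower in MAEL KO. Past 0.5 lay 5 members, against 53.6%. The interval lay above 0 for 4 members, below 0 for 3 and across 0 for 3, against 34.8%, 34.7% and 30.5% of the genes tested. In all, 7 of 10 members had a value above 0, against 48% of the genes tested. The median log2 fold change of the 9 members other than TERT was 0.11, and that of all genes tested was -0.04.

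**Figure D1:**
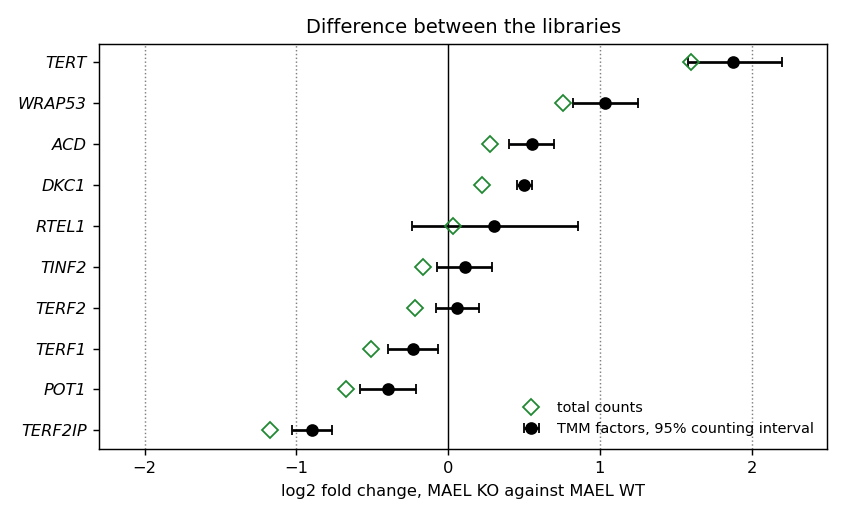
The horizontal axis gives the log2 fold change (MAEL KO over MAEL WT) for each of the 10 genes, with black points for TMM factors, bars for the 95% counting interval and green diamonds for scaling by total counts. TERT stands at 1.88 and TERF2IP at -0.90 with TMM factors, and every diamond lies to the left of its black point.

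Levels of different genes were compared by the deposited FPKM values, which divide counts by gene length. In MAEL WT the members ran from DKC1 at 63.7 FPKM to RTEL1 at 0.405. The order between them was TERF2IP at 19.3, ACD at 9.45, TINF2 at 8.83, TERF2 at 6.95, POT1 at 4.75, TERF1 at 3.70, WRAP53 at 2.54 and TERT at 1.15 FPKM. Among neighbours in this order, ACD and TINF2 alone had overlapping 95% Poisson intervals of their counts. TERT was thus ninth of 10 in MAEL WT, below WRAP53 and every shelterin gene.

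In MAEL KO the ends of the order were the same genes, DKC1 at 90.0 FPKM and RTEL1 at 0.50. Between them stood ACD at 13.8, TERF2IP at 10.4, TINF2 at 9.51, TERF2 at 7.23, WRAP53 at 5.21, TERT at 4.25, POT1 at 3.596 and TERF1 at 3.14 FPKM. The neighbours TERF2IP and TINF2, TERT and POT1, and POT1 and TERF1 had overlapping intervals. TERT took place 7 in MAEL KO, above POT1 and TERF1, and ACD stood in the place next to DKC1 that TERF2IP held in MAEL WT.

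**Figure D2:**
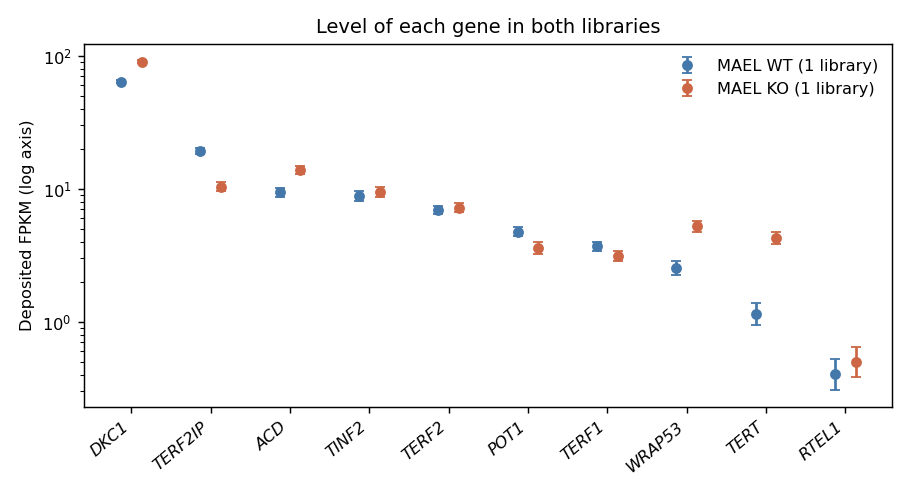
The vertical log axis gives the deposited FPKM of the 10 genes in MAEL WT (blue) and MAEL KO (orange), in the order of MAEL WT, with 95% Poisson intervals of the counts as bars. TERT is at 1.15 and 4.25 FPKM, and DKC1, the most abundant, at 63.7 and 90.0.

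TERT (ENSG00000164362) lies on the minus strand of chromosome 5 of GRCh38 from 1253147 to 1295069. In GENCODE 29 TERT has 6 transcripts, the longest of 16 exons, and 0 of its 4602 exon bases are shared with another annotated gene. TERT had 116 counts in MAEL WT and 371 in MAEL KO, or 108 and 400.1 normalized counts. The MAEL KO library was the higher one and the counting intervals of the levels did not overlap. The log2 fold change was 1.88 (95% interval 1.58 to 2.20), a 3.68-fold difference. Of the genes tested, 2.57% had a larger log2 fold change. The counts are summed over all transcripts of the gene, so full-length TERT and its spliced forms that lack catalytic activity cannot be told apart.

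A ratio of TERT to another member within a library does not depend on the scaling between libraries. For every 100 counts of DKC1 there were 1.98 of TERT in MAEL WT and 5.17 in MAEL KO. DKC1 stood at 55.3 times the FPKM of TERT in MAEL WT and 21.2 times in MAEL KO. The TERT to DKC1 ratio was thus 2.61 times as high in MAEL KO (95% interval 2.11 to 3.26, exact conditional odds ratio, counting error only). Against the other 8 members the ratio for TERT was 1.80 with WRAP53 (95% interval 1.39 to 2.35), 2.52 with ACD, 2.99 with RTEL1, 3.43 with TINF2, 3.55 with TERF2, 4.34 with TERF1, 4.88 with POT1 and 6.89 with TERF2IP (95% interval 5.46 to 8.73). All 9 ratios were above 1, which follows from TERT having the highest log2 fold change of the members. Their lower limits lay between 1.39 and 5.46. The 9 ratios restate those fold changes and are no further support. As a description, TERT was higher in MAEL KO relative to each other member, least relative to WRAP53 and most relative to TERF2IP.

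Promoter sequences of RefSeq on GRCh38.p14 are shown for TERT, the member highest above MAEL WT, for TERF2IP, the member farthest below it, and for DKC1, the most abundant. Each is the longest stretch upstream of the RefSeq start that holds no exon in GENCODE 29, written 5′ to 3′ on the gene's strand. The stretches are chr5:1295070-1295318 (minus strand), chr16:75647680-75647772 (plus strand) and chrX:154762614-154762741 (plus strand). Capitals mark matches on either strand of the E-box CACGTG, the site of the MYC and MAX family, the GC box GGGCGG of SP1-like factors, and the ETS core CCGGAA.
TERT: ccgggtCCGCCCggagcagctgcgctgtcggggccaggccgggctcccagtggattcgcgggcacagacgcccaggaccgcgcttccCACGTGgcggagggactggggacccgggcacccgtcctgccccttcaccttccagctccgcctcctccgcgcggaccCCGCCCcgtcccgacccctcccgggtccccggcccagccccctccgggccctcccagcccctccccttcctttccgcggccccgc
TERF2IP: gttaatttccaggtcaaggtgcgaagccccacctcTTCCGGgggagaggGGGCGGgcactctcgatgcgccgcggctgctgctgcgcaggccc
DKC1: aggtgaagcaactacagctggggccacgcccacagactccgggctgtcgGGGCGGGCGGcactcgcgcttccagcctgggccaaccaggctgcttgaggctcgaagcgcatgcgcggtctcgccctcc
In the full windows of 250 bases before and 50 after the start, TERT held 1 E-box, which began 163 bases before the start, 3 GC boxes and no ETS core. TERF2IP held 1 GC box and 1 ETS core, and DKC1 held 4 GC boxes, of which the 2 capitalized overlap each other. Windows were found for 8 of the 10 members, 12 windows in all, and the E-box was in that of TERT alone. Of 35116 promoter windows, 7.26% held the E-box, 45% the GC box and 17.2% the ETS core. These matches describe letters only, and no binding was measured in these cells.

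DKC1 lies on the plus strand of chromosome X from 154762742 to 154777689. It had 5860 counts in MAEL WT and 7174 in MAEL KO. MAEL KO was the higher library, at 0.50 on the log2 scale (95% interval 0.45 to 0.55), the narrowest interval of the members in the gene with the most counts. The small RNA genes SNORA36A, SNORA56 and MIR664B lie in its exons and had 0 counts in both libraries. WRAP53 lies on the plus strand of chromosome 17 from 7686071 to 7703502. It had 283 and 502 counts and stood at 1.03 (95% interval 0.82 to 1.25).

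Other genes of the telomerase particle and its assembly were read from a list of 14, of which 13 had at least 10 counts in 1 library. TERC, the RNA template, had 0 counts in both libraries, which allows up to 3 counts, or 0.151 CPM in MAEL WT and 0.144 CPM in MAEL KO. Mature TERC lacks a poly(A) tail, and this limit holds only for the RNA that these libraries captured. The H/ACA proteins that sit on the RNA beside DKC1 were GAR1 with 822 and 1020 counts, NHP2 with 2185 and 2066, and NOP10 with 2011 and 1957. Their log2 fold changes were 0.52, 0.13 and 0.17. GAR1 stood close to DKC1. NHP2 and NOP10 changed side with the scaling and were at -0.15 and -0.11 with total counts.

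The assembly factors SHQ1, a chaperone of dyskerin, and NAF1, which GAR1 replaces in the mature particle, were at 0.47 and 0.31. The ATPases RUVBL1 and RUVBL2, which help to assemble TERT with the RNA, were at 0.47 and 0.18. PARN, which trims the 3′ end of TERC, was at 0.55, and PINX1, a telomerase inhibitor, at 0.50. TEP1, a protein that binds the telomerase RNA, and NVL, an ATPase that associates with TERT, were lower in MAEL KO, at -0.24 and -0.23. Over the 13 genes the median log2 fold change was 0.47, with 11 above 0 and 2 below, where 48% of the genes tested were above 0. With total counts it was 0.19, with 8 above 0 and 5 below, and NHP2, NOP10 and RUVBL2 were those that changed side. WRAP53 alone passed 1, where 10.2% of the genes tested were higher in MAEL KO, and no gene passed 2, where 2.16% were.

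The shelterin genes together had 4801 counts in MAEL WT and 3695 in MAEL KO. Their summed FPKM was 53.0 and 47.7. Of the 6 genes, 3 were above 0 and 3 below on the log2 scale, with a median of -0.08, and none passed 1. Among all genes tested, 48% were above 0 and 26.7% passed 1 in either direction. The 3 of 6 above 0 was near that share, and it moved with the scaling. With total counts 1 of the 6 genes lay above 0 and 5 below, with a median of -0.36. TERF2IP then passed 1, at -1.17.

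Among the subunits that bind double-stranded repeats, TERF1 (chromosome 8, 73008864 to 73048122) had 714 and 526 counts and stood at -0.23 on the log2 scale (95% interval -0.40 to -0.07). Processed copies of TERF1 in the table held at most 4 counts. TERF2 (chromosome 16, 69355561 to 69408571) had 854 and 770 counts and stood at 0.06 (95% interval -0.08 to 0.20). TERF1 was thus slightly lower in MAEL KO. For TERF2 the interval spanned 0 with TMM factors, but with total counts TERF2 was at -0.21, outside that interval.

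TERF2IP (chromosome 16, 75647786 to 75761872) had 1430 counts in MAEL WT and 664 in MAEL KO. It was the member farthest below 0, at -0.90 (95% interval -1.03 to -0.76), and 81.4% of the genes tested had a higher log2 fold change. Within shelterin, TERF2IP stood at 2.79 times the FPKM of its partner TERF2 in MAEL WT and at 1.43 times in MAEL KO. The ratio of TERF2IP to TERF2 in MAEL KO was 0.515 of that in MAEL WT (95% interval 0.449 to 0.59). The listed gene overlaps KARS, a lysyl-tRNA synthetase gene on the opposite strand, which shares 176 exon bases with it, 5.21% of those of TERF2IP. KARS had 3727 and 4502 counts and stood at 0.48, on the other side of 0 from TERF2IP.

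TINF2 (chromosome 14, 24239643 to 24242674), the hub of the complex, had 524 and 489 counts and stood at 0.11 (95% interval -0.07 to 0.29). The interval spanned 0 with TMM factors, but with total counts TINF2 was at -0.17, outside that interval. POT1 (chromosome 7, 124822386 to 124929983) had 613 and 402 counts and was lower in MAEL KO, at -0.40 (95% interval -0.58 to -0.21). ACD (chromosome 16, 67657512 to 67660815) had 666 and 844 counts and was higher, at 0.55 (95% interval 0.40 to 0.70). The exons of ACD share 58 bases, 1.80%, with CARMIL2 on the opposite strand, which had 152 and 72 counts, and the antisense gene POT1-AS1 had 7 and 1. POT1 and ACD encode the partners that form a dimer on the overhang, and they lay on opposite sides of 0. For every 100 counts of ACD there were 92.0 of POT1 in MAEL WT and 47.6 in MAEL KO, so that the ratio in MAEL KO was 0.517 of that in MAEL WT (95% interval 0.439 to 0.61).

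As shares of the summed shelterin FPKM, TERF2IP went from 36.5% in MAEL WT to 21.8% in MAEL KO and ACD from 17.8% to 28.99%. TINF2 was at 16.7% and 19.96%, TERF2 at 13.1% and 15.2%, POT1 at 8.96% and 7.55%, and TERF1 at 6.97% and 6.59%. The most abundant shelterin transcript was therefore TERF2IP in MAEL WT and ACD in MAEL KO. The highest shelterin gene exceeded the lowest 5.23-fold in MAEL WT and 4.40-fold in MAEL KO by FPKM. These shares do not depend on the scaling between libraries.

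**Figure D3:**
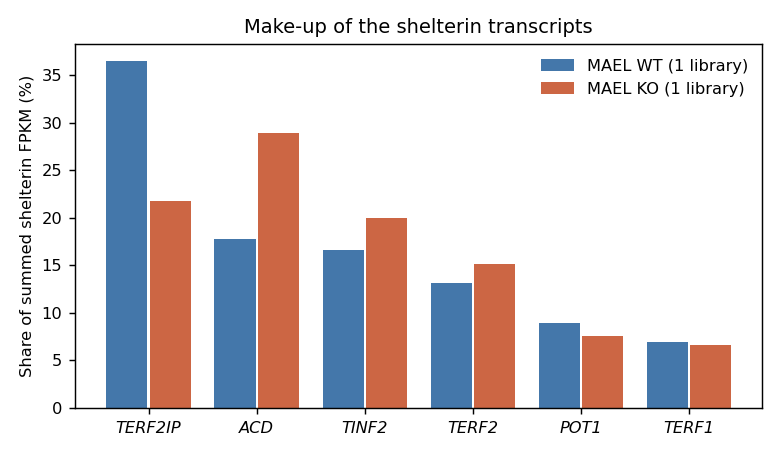
Bars give each shelterin gene's share, in percent, of the summed FPKM of the 6 genes in MAEL WT (blue) and MAEL KO (orange), with 1 library each and so no error bars. TERF2IP is at 36.5% and 21.8%, and ACD at 17.8% and 28.99%.

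Tankyrases and other partners or turnover factors of shelterin, 10 genes in all, had a median log2 fold change of 0.00, with 5 above 0 and 5 below. The lowest were HMBOX1, which binds double-stranded telomere repeats, from 606 to 296 counts, SIAH2, a ubiquitin ligase, and ZBTB48, a telomere length factor, at -0.82, -0.53 and -0.26. The highest were PIF1, a helicase that removes telomerase from ends, from 185 to 561 counts, NEK2, a mitotic kinase, and RIF1, a replication timing factor, at 1.80, 1.16 and 0.96. Of the 10 genes, 2 passed 1, both higher in MAEL KO, where 10.2% of the genes tested were. Above 0 lay 48% of the genes tested. TNKS and TNKS2, which release TERF1 from telomeres, were at -0.18 and -0.04.

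RTEL1 (chromosome 20, 63657810 to 63696253) had 57 counts in MAEL WT and 61 in MAEL KO and stood at 0.30 (95% interval -0.24 to 0.86). No difference was detectable at this depth. A readthrough gene, RTEL1-TNFRSF6B, covers 4522 of the exon bases of RTEL1, or 70.2%, and had 95 and 121 counts. Reads in shared exons could have been given to either gene or to neither, so that the level of RTEL1 is uncertain. With both genes summed, an alternative chosen after the data were seen, the counts were 152 and 182 and the log2 fold change 0.47 (95% interval 0.15 to 0.79).

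Genes that copy telomeric DNA or process its ends, a list of 16 that holds RTEL1, had a median log2 fold change of 1.23. Of these, 10 passed 1, all higher in MAEL KO, where 10.2% of the genes tested were, and 2 passed 2, where 2.16% were. The highest were EXO1, an exonuclease that resects the ends, from 183 to 954 counts, BLM, a RecQ helicase, from 198 to 831, and DNA2, a nuclease and helicase, from 190 to 650. Their log2 fold changes were 2.59, 2.27 and 1.98. The lowest were MUS81, a structure-selective nuclease, from 2757 to 1501 counts, SLX4, its scaffold, and RAD50, at -0.67, -0.05 and 0.03. DCLRE1B (Apollo), the nuclease that TERF2 recruits, was at 1.15. RTEL1 lay below the median of the list it belongs to.

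The CST complex and the polymerase alpha-primase that it brings to telomeres to fill in the C-rich strand were split. CTC1 had 883 and 637 counts and STN1 382 and 243, at -0.26 and -0.44, and TEN1 had 3 and 0 counts, both at or under the floor. The polymerase and primase genes were higher in MAEL KO. POLA1 had 648 and 1804 counts, POLA2 40 and 78, PRIM1 84 and 325, and PRIM2 240 and 577, with log2 fold changes of 1.69, 1.15, 2.15 and 1.47. CTC1 and STN1 thus lay below 0, and 4 of 4 polymerase alpha-primase genes lay above 1, where 10.2% of the genes tested lay. With total counts POLA2 was at 0.88 and the others stayed above 1.

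A list of 10 genes tied to alternative lengthening of telomeres and to telomeric chromatin had a median of 0.34. The highest were ASF1B, a histone chaperone, at 2.37, NR2F2, a nuclear receptor, at 1.48 and FANCM, a translocase of DNA repair, at 1.13. The lowest were SMARCAL1 at -0.31, NR2C2 at -0.21 and ASF1A at 0.08. ATRX and DAXX, whose loss is a known mark of alternative lengthening, had 2296 and 2426 counts and 1471 and 1646 counts. These are RNA counts, and neither the proteins nor the telomeres were measured here.

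Proliferation genes were higher in MAEL KO. Of 33 genes for DNA replication and mitosis, 33 lay above 1 and 20 above 2 on the log2 scale. Among all genes tested, 10.2% and 2.16% did. Scaled by total counts, UBE2C was at 0.92, the median of the 33 was 1.82 and fewer of them lay above 2. With TMM factors the 33 genes ranged from 1.197 to 3.40, with a median of 2.09. Their summed counts were 24505 in MAEL WT and 96126 in MAEL KO. The highest were RRM2, MCM4 and CCNA2 at 3.40, 3.04 and 2.67, and the lowest UBE2C, CCNE2 and CHAF1A at 1.197, 1.49 and 1.495. TERT at 1.88 lay within the range of these genes, and the 9 other members lay below that range. The part of proliferation in the TERT, replication and primase values was not tested. The study itself reported slower proliferation of MAEL knockout PLC8024 cells by XTT assay and foci formation. It also reported fewer colonies and spheroids, smaller tumors in mice, and similar effects on growth when MAEL was silenced by shRNA. RNA counts of 1 library per condition are not a measure of growth.

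**Figure D4:**
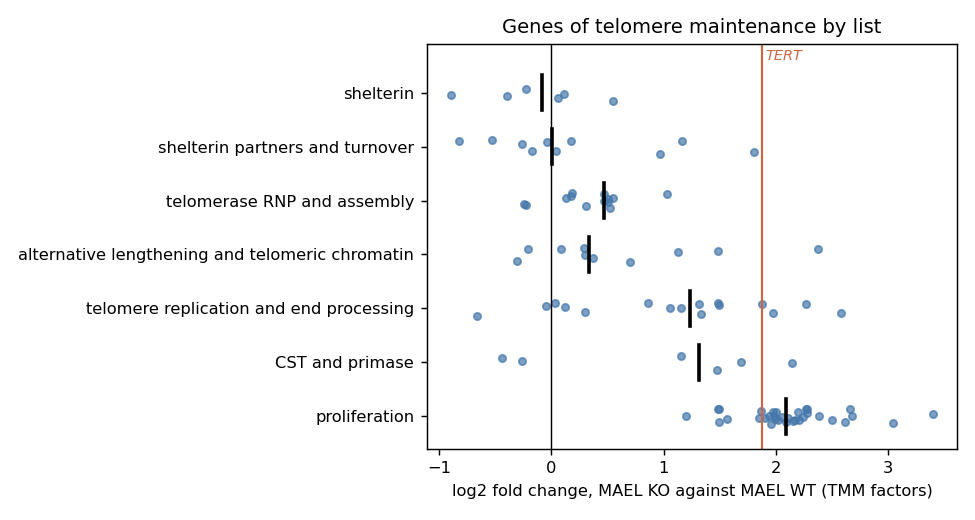
Each blue point is 1 gene's log2 fold change (MAEL KO over MAEL WT), black bars are the medians of the lists, and the orange line marks TERT at 1.88. The medians run from -0.08 for shelterin to 2.09 for proliferation.

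The neighbourhood of TERT on chromosome 5 was read next, since position was not part of the choice. Within 1 Mb on each side, 25 other genes were tested, with a median log2 fold change of 0.01 and a range from -2.57 to 2.06. Among protein-coding genes that passed the count filter, the nearest upstream of TERT were CLPTM1L, a membrane protein gene, with 3598 and 3080 counts at -0.01 (95% interval -0.08 to 0.06), and LPCAT1, a phospholipid acyltransferase gene, with 1005 and 743 counts at -0.23. The nearest downstream by the same rule were SLC12A7, a potassium chloride transporter gene, with 3194 and 2040 counts at -0.44, and NKD2, a WNT antagonist gene, with 152 and 40 counts at -1.69. All 4 lay below TERT, as did 97.4% of the genes tested.

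One gene of the 25 lay above TERT, against 2.57% of the genes tested. It was TRIP13, an ATPase of the mitotic checkpoint, which was named after its values were seen, with 389 and 1405 counts at 2.06. Of the 25 genes, 5 passed 1 in either direction, against 26.7% of the genes tested. For the other members, the median of the genes within 1 Mb lay between -0.51 for TINF2 and 0.15 for TERF2, leaving out POT1, which had 1 such gene tested.

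**Figure D5:**
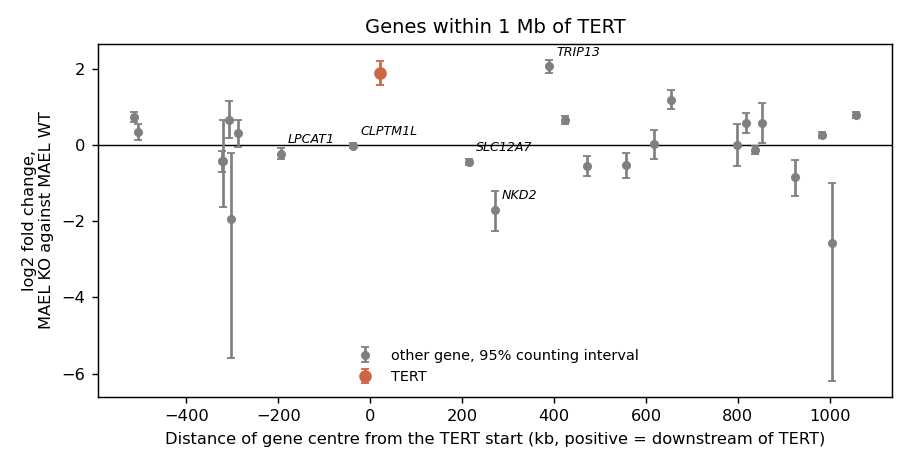
The horizontal axis gives the distance in kb of each gene's centre from the start of TERT, positive on the downstream side, and the vertical axis the log2 fold change with its 95% counting interval. TERT (orange, 1.88) and TRIP13 (2.06) stand above the rest, and the long bars below 0 belong to 2 pseudogenes with 2 counts in MAEL KO, whose points depend on the added count.

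The scaling between libraries sets the place of 0 for all these values. Scaled by total counts instead, the genes tested had a median shifted by -0.27 on the log2 scale. TERT was then at 1.60, WRAP53 at 0.76, ACD at 0.28, DKC1 at 0.23 and RTEL1 at 0.03, all still above 0. POT1 was at -0.67, TERF1 at -0.51 and TERF2IP at -1.17, and TERF2 and TINF2 changed sign to -0.21 and -0.17. RAD50 and ASF1A, named above, changed sign too, to -0.24 and -0.19, and of the shelterin partners 3 then lay above 0 and 7 below. With that scaling 2 members again passed 1, but they were TERT and TERF2IP in place of TERT and WRAP53. Fewer genes of the telomere replication list then passed 1 and 2, with DCLRE1B at 0.88 and BLM at 1.998. NEK2, a shelterin partner, was at 0.89.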

How the data were processed

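RNA-seq of 1 MAEL WT and 1 MAEL KO culture was run by the authors. The authors deposited read counts per gene as whole numbers without normalization. They also deposited FPKM values, which were rebuilt here exactly from the counts, the listed gene length and a library size of 1.10 and 0.91 times the total counts of MAEL WT and MAEL KO. The submitters' processing notes name HISAT2 2.0.5, featureCounts 1.5.0-p3 and hg19, but the tables carry GRCh38 coordinates, and the listed lengths of 10 of 10 members equal their exon unions in GENCODE 29. The strand setting and the treatment of reads shared by genes are not given in the sources used here. Groups follow the genotype label, and the table columns end in WT and KO.

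TMM factors came from edgeR 4.0.16 and other size factors from DESeq2 1.42.0 in R 4.3.3. Python 3.11.15 gave fold changes and intervals (SciPy 1.17.1, NumPy 2.4.6), tables (pandas 2.3.3) and plots (matplotlib 3.10.9). A prior count of 1, a filter of 10 counts in 1 library and thresholds of 1 and 2 were used. No p-value is given, since replicate error cannot be had from 1 library per condition, and the study's adjusted p-value was not used. The fold change and interval steps were tested on simulated counts with known answers, counting error alone and few, balanced changes. Those simulated counts could not test the choice of scaling for the real libraries. The members and lists were chosen with earlier results of these data known. Named are the 10 members, all genes of the telomerase and CST lists, the 3 highest and 3 lowest of the other lists, genes that overlap a member, and the 2 nearest tested coding genes on each side of TERT. Overlapping genes with no shared exon base or 0 counts are mostly left unnamed. TNKS, TNKS2, DCLRE1B, ATRX, DAXX, MYC and MXD1 fall outside this rule and were added after their values were seen. The depth of 19904136 and 20833332 counts sets the precision, and 3 counts were taken as the floor. One result on a gene that overlaps a member is not reported here.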

Additional observations from a re-analysis of the deposited data

How the results depend on the processing

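Values were recomputed with prior counts of 0.1 and 5, with a filter of 100 counts or none, with scaling by total counts or by DESeq2, and from deposited FPKM (0.01 added). No member passed 2 and 2 members passed 1 under each of these alternatives, with 9 members left by the filter of 100 counts. With total counts the 2 members were TERT and TERF2IP. The library sizes behind the FPKM values nearly equal those after TMM scaling, so that alternative is not an independent check. With total counts, medians moved to -0.17 for the 9 members other than TERT, -0.36 for shelterin, -0.27 for its partners, 0.062 for alternative lengthening, 0.96 for telomere replication, -0.29 for TERT promoter regulators and 1.82 for proliferation, since that scaling shifts all genes the same way. The median of the telomerase particle and assembly list was 0.19 with total counts and 0.31 without the count filter, against 0.47. Of 45 values of the single members other than TERT, 8 moved beyond their counting interval, all 8 with total counts. The median of the neighbours of TERT was -0.42 within 0.5 Mb, for 13 genes, where the cause was not tested. In alternatives chosen after the data were seen, TERT stood 1.39 above DKC1, against 1.77 above the median of the 9 other members, and 5 members passed a threshold of 0.5 and 1 passed 1.5, against 53.6% and 14.1% of the genes tested. The level rank of TERT was the same with CPM per kb. Leaving out a library was not possible with 1 per condition. No paired analysis was possible because the labels carry no replicate numbers and each condition has 1 library. TERC, TEN1, WT1 and MAEL had at most 3 counts in each library, too few to read a difference at this depth.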

Other observations

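Genes known to act on the TERT promoter were read as values from a list of 18, of which 17 passed the count filter. The list's median log2 fold change was -0.02, with 8 above 0 and 9 below, where 48% of the genes tested were above 0. The highest were E2F1, a factor of S-phase genes, from 792 to 1763 counts at 1.36, SP3, a GC box factor, at 0.71, and GABPA, an ETS family factor, at 0.68. MYC had 3014 and 3943 counts at 0.60, and its partner MAX 1264 and 586 counts at -0.90. For MYC the study reported the other direction, with lower mRNA and protein in its MAEL knockout cells. MXD1, which competes with MYC for MAX, had 296 and 150 counts at -0.77. Lower still were KLF4, from 1160 to 190 counts at -2.39, and ETS1, with 21 and 0 counts, for which the limit of the interval nearest 0 was -2.17. WT1, with 1 and 0 counts, was at or under the floor in both libraries. The list thus lay on both sides of 0, and its part in the TERT value was not tested.

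Markers of other cell types ranged from absent to well counted. Of 5 immune markers LYZ held 1251 of 1290 counts in MAEL WT and 737 of 745 in MAEL KO. Of 4 endothelial markers PECAM1 held 348 and 392 counts and CDH5 4 and 15. VWF and KDR had 1 count each in MAEL WT and 0 in MAEL KO. Of 5 fibroblast markers PDGFRB had 122 and 29 counts, COL1A1 92 and 11, COL3A1 54 and 136, COL1A2 1 and 1, and ACTA2 0 in both. Of the epithelial markers, KRT18 had 8981 and 10320 counts, KRT8 12248 and 23308, and CDH1 1400 and 1840. KRT19 had 13 and 1 counts, and EPCAM had 15 and 0.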
